A study of Mus musculus with 8 samples.

Results

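The genes described here encode the proteins of the cytosolic ribosome, measured in mouse CD8+ T cells. They were chosen by gene name on the array, which had to be Rpl, Rps or Rplp followed by a number and at most one of the letters a, x or l, so that the Rps6k kinases stayed out. This gave 79 gene names of 28095 on the arrays: 45 of the large subunit, 3 of the P stalk and 31 of the small subunit, with 132 probes in all. The brightest probe stood for each gene, and 78 of the 79 passed the filter on dim probes, as did 19629 gene names in all. The gene left out was Rpl3l, the paralog of Rpl3 known from striated muscle, which was well above background on 1 array. The RNA came from purified splenic CD8+ T cells of OT-I TCR tg mice on the C57BL6 background, which carry 1 transgenic T cell receptor (TCR), specific for the SIINFEKL peptide on H-2Kb. Cells were given IFNb for 2 h or for 7 h, IFNb for 1 h with TCR stimulation for 1 h or 6 h, TCR stimulation alone for 1 h or 6 h, or neither. Each treated condition had 1 array and the untreated cells had 2. The TCR stimulus was SIINFEKL streptamers, which are soluble peptide and MHC complexes with no antigen-presenting cell. All groups shared the transgenic receptor, and the labels put the purity of the cells between 90 and 97%.

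A ribosome is built in the nucleolus from ribosomal RNA and one copy of most ribosomal proteins, with the P stalk proteins Rplp1 and Rplp2 as the exception. The mRNAs of these proteins are among the most abundant in a cell, and many begin with a C and a run of pyrimidines, the 5′ terminal oligopyrimidine (TOP) tract, through which their translation follows mTOR signalling. T cells leaving quiescence after antigen recognition raise protein synthesis and ribosome assembly, and an array of this kind reads mRNA level and not translation.

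Some of the annotated starts show the TOP letters. Of the 79 gene names, 59 had a promoter in the RefSeq table of build GRCm38.p6, which runs from 250 bases before to 50 bases after a start. A C followed by at least 4 further pyrimidines, beginning within 2 bases of the start on the coding strand, was found in 21 of the 59 genes (35.6%), against 10.6% of the 27025 genes in that table. A gene was counted if any of its annotated starts matched. The windows below run from 10 bases before the start to 20 bases from it, with the pyrimidine run in capitals. They show 3 genes of each subunit with a run, and then a pair of paralogs whose array values differed.
Rpl15 (chr14:18270967-18270996, minus strand): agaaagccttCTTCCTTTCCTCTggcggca
Rpl28 (chr7:4792955-4792984, plus strand): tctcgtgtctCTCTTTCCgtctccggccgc
Rpl35 (chr2:39005112-39005141, minus strand): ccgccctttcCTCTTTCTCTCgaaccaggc
Rps6 (chr4:86857348-86857377, minus strand): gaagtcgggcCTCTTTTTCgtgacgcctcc
Rps10 (chr17:27635225-27635254, minus strand): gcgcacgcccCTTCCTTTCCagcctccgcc
Rps18 (chr17:33955646-33955675, minus strand): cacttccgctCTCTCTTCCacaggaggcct
Rps27 (chr3:90213629-90213658, minus strand): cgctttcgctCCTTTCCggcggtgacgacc
Rps27l, 1 of its annotated starts (chr9:66946076-66946105, plus strand): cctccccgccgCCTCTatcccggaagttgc
The run was 13 bases long in Rpl15, 9 in Rps6, 7 in Rps27 and 5 in Rps27l. Where RefSeq puts a start decides this count, and a run is a description of the letters, not of translation. The letters CCGGAAG, on either strand of the 300 bases, were present in 25 of the 59 genes (42.4%), against 9.93% of all genes, and in 1 gene start the match overlapped the pyrimidine run. CACGTG was present in 6 of 59 genes (10.2%), against 8.09% of all genes. TATAAA was present in 6 of 59 genes (10.2%), against 15.7%. The 21 genes with a pyrimidine run had a median log2 change of 0.448 at TCR 6 h, and the 37 measured genes without one had a median of 0.462. By RefSeq gene spans, 29 of 79 (36.7%) of the genes held at least 1 annotated small nucleolar RNA, against 1.7% of 21896 protein-coding genes.

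Signals are given on a linear scale after each array's 75th percentile was set to 1500, and changes are log2 values. Before scaling, that percentile lay between 807.4 and 1241 intensity units. On each array between 26065 and 29533 of 43379 spots were well above background, none was saturated, and the number of arrays limits the precision. Over 143 repeated probes the untreated arrays differed by about the noise between spots (robust SD 0.0344 against 0.0327 expected), so their mean was counted as 1 sample. Values for the TCR 1 h array and for the array with IFNb 1 h and TCR 1 h follow the deposited value table, because the scanner files give these names the other way round. Slide 1 held the IFNb 2 h array and both TCR 1 h arrays, slide 2 held the IFNb 7 h array and both TCR 6 h arrays, and each had 1 untreated array. The 6 CD8 T cell markers were all measured, with a summed signal of 290500 and 280500 at TCR 6 h with and without IFNb, against 556000 and 557500 in untreated cells. Over 6 measured B cell markers the sum was 5308 and 4524 at TCR 6 h with and without IFNb, 41150 with IFNb for 2 h, 35340 with IFNb for 7 h, and 13390 and 13040 in untreated cells. With IFNb for 2 h and 7 h the sums of erythroid markers (12640 and 11460, against 3812 and 3794 in untreated cells), NK cell markers (751.9 and 952.7, against 282.2 and 275.9) and class II presenting cell markers (52630 and 31470, against 23730 and 23280) were also higher. The CD8 sum was higher there too, at 756800 and 766900. The sums of CD4 T cell markers were 357.4 and 346.2, against 266.5 and 256.1 in untreated cells. Those of myeloid markers were 3991 with IFNb for 2 h and 2064 with IFNb for 7 h, against 3222 and 3287. The part of other cells in the results below was not tested. In RNA of bulk samples, fewer cells of a type and less RNA per cell cannot be told apart.

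Ribosomal protein mRNAs filled the top of the signal range. In untreated cells 72 of the 78 measured genes lay at 123200 (Rps19) or above, with a median of 320700, and 58 of the 100 brightest genes were ribosomal protein genes. These 72 are called the bright genes below. The other 6, Rpl14, Rpl21, Rpl27a, Rpl31, Rpl39l and Rps27l, lay between 129.2 and 24810, and this division was drawn at 30000 after the values had been seen. Probes differ in how well they bind, so the 6 genes need not have less mRNA than the 72. For 3 gene names (Rpl10, Rpl12 and Rps29) the array file places the brightest probe on another chromosome than the gene, and ribosomal protein genes have many near-identical processed copies whose signal the probes may share.

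After 6 h of TCR stimulation a few genes rose, and these were among the dimmest. Rps27l, Rpl39l, Rpl14, Rpl31 and Rpl21 passed the test, between 1.77-fold and 5.52-fold, and no gene fell. That is 5 of 78 (6.41%) higher, against 22.3% of 19627 genes tested, and 0 lower, against 22.7%. All 72 bright genes had a positive change, from 0.158 to 0.753, and none of them passed at an adjusted p of 0.05, while 8 had an unadjusted p under 0.05. The test was limma's moderated test on the TCR 6 h term of a model with IFNb and both TCR times, adjusted by the Benjamini-Hochberg method over all genes.

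**Figure D1:**
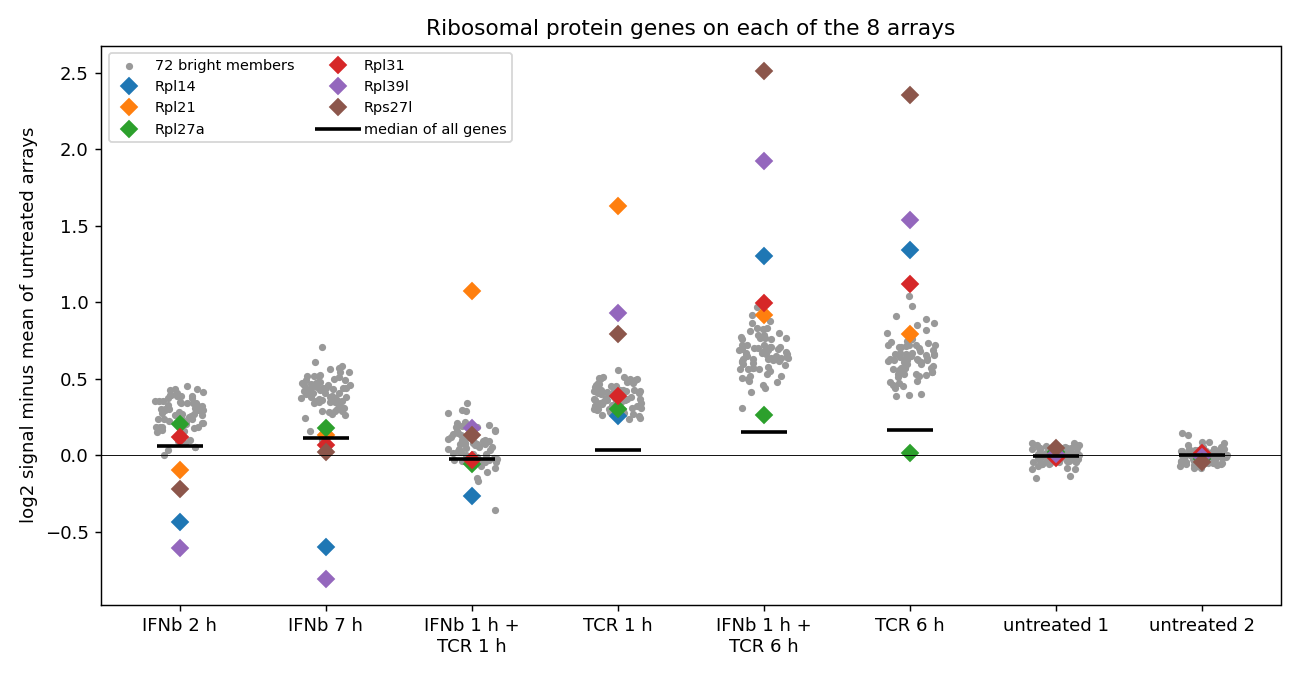
Log2 signal of the 78 measured ribosomal protein genes minus the mean of the untreated arrays, by array. Grey points are the 72 bright genes, coloured diamonds the 6 dim genes, and black bars the median of all genes. The bright genes move as one group, and Rps27l stands at the top of both TCR 6 h arrays.

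Rps27l, the paralog of Rps27 known as a target of p53, had the largest change. Its signal was 141200 with IFNb and TCR 6 h and 126700 at TCR 6 h alone, against 25620 and 24030 in untreated cells, 21310 and 25190 with IFNb alone for 2 h and 7 h, and 27170 and 43020 at 1 h of TCR with and without IFNb. Both TCR 6 h arrays lay above every other array. The change was 2.46 ± 0.27 (SE, 5.52-fold, adjusted p = 0.001 by limma), and it passed in all 20 alternative settings. Its parent Rps27, a small subunit protein with a zinc finger, had 580200 with IFNb and TCR 6 h and 579700 at TCR 6 h alone, against 389600 and 419600 in untreated cells and 589100 with IFNb for 7 h. For Rps27 the TCR 6 h arrays lay within the range of the other treated arrays, and its change was 0.24 ± 0.27 (adjusted p = 0.51 by limma). The first 30 of the 60 bases of the probes for this pair, with the mm9 positions given in the array file, show that the probes differ.
Rps27l probe (chr9:66795486-66797176): aaagccaggctcacagaaggctgttcattt
Rps27 probe (chr3:90016593-90016650): ctgaaagcccctgattgaagatgagtggga
The Rps27l interval is longer than its probe, as it was for 29 of the 79 brightest probes, so those were placed on the genome in pieces.

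Rpl39l, a paralog of Rpl39 best known from the mouse testis, rose at a low signal. It had 489.3 with IFNb and TCR 6 h and 374.4 at TCR 6 h alone, against 130.2 and 128.3 in untreated cells. Its lowest values, 85.15 and 73.81, were those with IFNb alone for 2 h and 7 h, and at 1 h of TCR it had 146.1 with IFNb and 246.1 without IFNb. The TCR 6 h arrays were above all others, with a change of 2.13 ± 0.33 (SE, 4.38-fold, adjusted p = 0.0031 by limma). A second Rpl39l probe, well above background on 2 arrays, did not pass at 2.39 (adjusted p = 0.067 by limma over all probes). That probe had 19.37 and 124.3 at TCR 6 h with and without IFNb, against 7.076 and 11.96 in untreated cells. Rpl39 itself, which lines the exit tunnel of the large subunit, had 299400 and 318300 at TCR 6 h with and without IFNb, against 252600 and 231400 in untreated cells. Its change of 0.20 ± 0.23 (adjusted p = 0.53 by limma) was among the 4 lowest of the 78 genes.

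The other 3 genes that rose belong to the large subunit. Rpl14 had 17200 with IFNb and TCR 6 h and 17630 at TCR 6 h alone, against 6952 and 6966 in untreated cells, a change of 1.61 ± 0.24 (3.04-fold, adjusted p = 0.0029 by limma). Rpl31, which sits near the exit of the peptide tunnel, had 20170 and 21970 at TCR 6 h with and without IFNb, against 9997 and 10230 in untreated cells, a change of 0.98 ± 0.24 (1.97-fold, adjusted p = 0.017 by limma). For both genes the TCR 6 h arrays lay above all 6 other arrays. Rpl21 differed in its course: it had 5997 and 5521 at TCR 6 h with and without IFNb, against 3206 and 3153 in untreated cells, but 6691 and 9810 at TCR 1 h with and without IFNb. Its change at 6 h was 0.82 ± 0.26 (1.77-fold, adjusted p = 0.043 by limma). A second Rpl21 probe, well above background on all 8 arrays, did not pass: it had 1354 and 1277 at TCR 6 h with and without IFNb, against 1055 and 1088 in untreated cells, a change of 0.25 (adjusted p = 0.43 by limma over all probes). The second probe of Rpl31 did pass, at 1.20 (adjusted p = 0.0096 by limma over all probes). The calls of Rps27l, Rpl39l and Rpl14 held in all 20 alternative settings, that of Rpl31 in 16 and that of Rpl21 in 11. Rpl31 and Rpl21 lost theirs when either TCR 6 h array was left out, with Rpl31 at an adjusted p of 0.076 or 0.13 and Rpl21 at 0.086 or 0.31. Rpl27a, also dim and also of the large subunit, had 19760 and 16630 at TCR 6 h with and without IFNb, against 16690 and 16170 in untreated cells. These overlap, and its change of 0.02 ± 0.25 (adjusted p = 0.95 by limma) was the lowest of the 78.

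**Figure D2:**
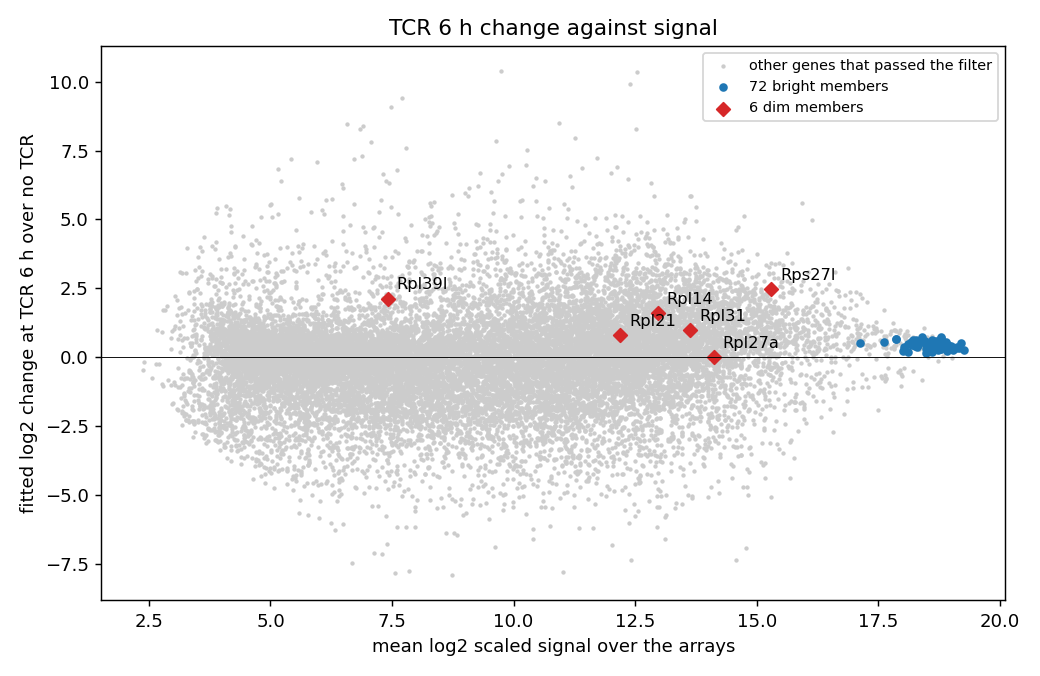
Fitted log2 change at TCR 6 h (vertical) against mean log2 scaled signal (horizontal) for all genes that passed the filter. The 72 bright ribosomal protein genes form a narrow band between 0.158 and 0.753 at the right edge, while 5 of the 6 dim genes lie above them.

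Among the bright genes the changes at TCR 6 h were small and alike across the ribosome. The median was 0.445 for the 39 bright large subunit genes, 0.428 for the 30 bright small subunit genes and 0.330 for the 3 stalk genes. Over all 78 genes it was 0.444, against 0.049 for all genes, with quartiles at 0.337 and 0.542, against -0.931 and 0.780 for all genes. On the TCR 6 h array the robust SD across the bright genes was 0.122, against 1.208 for all genes.

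The P stalk proteins recruit elongation factors to the ribosome. Rplp0 had 621800 with IFNb and TCR 6 h and 684900 at TCR 6 h alone, against 440000 and 436600 in untreated cells. In the same order Rplp1 had 690000 and 650400, against 461800 and 431700 in untreated cells, and Rplp2 had 712700 and 704700, against 461600 and 478700. All 3 were higher on both TCR 6 h arrays than on the untreated ones, yet the IFNb 7 h array came close with 603400, 641200 and 669600 in that order of genes. Their changes of 0.34, 0.32 and 0.33 each had a standard error of about the same size, from 0.247 to 0.258.

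In the large subunit, Rpl3, which reaches toward the peptidyl transferase centre, had a change of 0.58 ± 0.23 (adjusted p = 0.09 by limma). Rpl5 and Rpl11 bind the 5S ribosomal RNA and, when free, the p53 regulator MDM2, and their changes were 0.41 ± 0.25 and 0.45 ± 0.24. Rpl10, one of the last proteins to join the large subunit, had 0.45 ± 0.25. Rpl10a had 0.56 ± 0.24, Rpl13a 0.48 ± 0.26, Rpl19 0.32 ± 0.26 and Rpl22, an RNA-binding protein with a role in T cell development, 0.46 ± 0.26. The highest of the bright genes was Rpl36, with 499400 and 544600 at TCR 6 h with and without IFNb, against 267300 and 262500 in untreated cells. Its change was 0.75 ± 0.27 (adjusted p = 0.064 by limma), just short of the threshold. Rpl36 was picked for naming after its value had been seen.

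In the small subunit, Rps6, the substrate of the S6 kinases downstream of mTOR, had 428300 and 446200 at TCR 6 h with and without IFNb, against 273100 and 254700 in untreated cells. The TCR 6 h arrays were the highest of the 8, and the change was 0.62 ± 0.23 (adjusted p = 0.07 by limma). Rps19, which is mutated in Diamond-Blackfan anaemia in humans, had 0.51 ± 0.23 and Rps27a, made as a fusion with ubiquitin, 0.41 ± 0.30. Rps4x had 0.30 ± 0.24, Rps14 0.34 ± 0.27 and Rps18 0.38 ± 0.27. Rps21 and Rps24 were the lowest of this subunit, at 0.16 ± 0.26 and 0.18 ± 0.25. None of these passed the test.

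The changes of the bright genes depended on the scaling. With quantile normalization the median change of the 78 genes at TCR 6 h was 0.004, against 0.092 for all genes, with 40 genes positive and 38 negative. With normexp background correction before it the median was 0. Quantile normalization gives each array the same set of values, so genes that fill the top of the range can hardly move as a group. A median near 0 under it therefore does not show whether these genes rose. With each array scaled to its median, the median change of the 78 genes was 0.696, against 0.301 for all genes, and 21 genes passed. Relative to the median of all genes the difference was 0.395 under percentile scaling and -0.089 under quantile normalization. Median scaling must give the same 0.395, because both scalings shift all values of an array by the same amount. Median scaling also moved the share of higher calls among all calls at TCR 6 h to 59.8%, against 49.6% with the 75th percentile. Before any scaling, the median signal of the ribosomal protein genes stayed within -0.126 and 0.071 of the untreated level on every array. The 75th percentile of the same arrays was lower than in untreated cells on all 6 treated arrays, with log2 differences from -0.141 (IFNb and TCR 1 h) to -0.599 (IFNb and TCR 6 h). Whether ribosomal protein mRNA rose in the cells, the other mRNAs fell or the arrays differed technically was not tested.

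**Figure D3:**
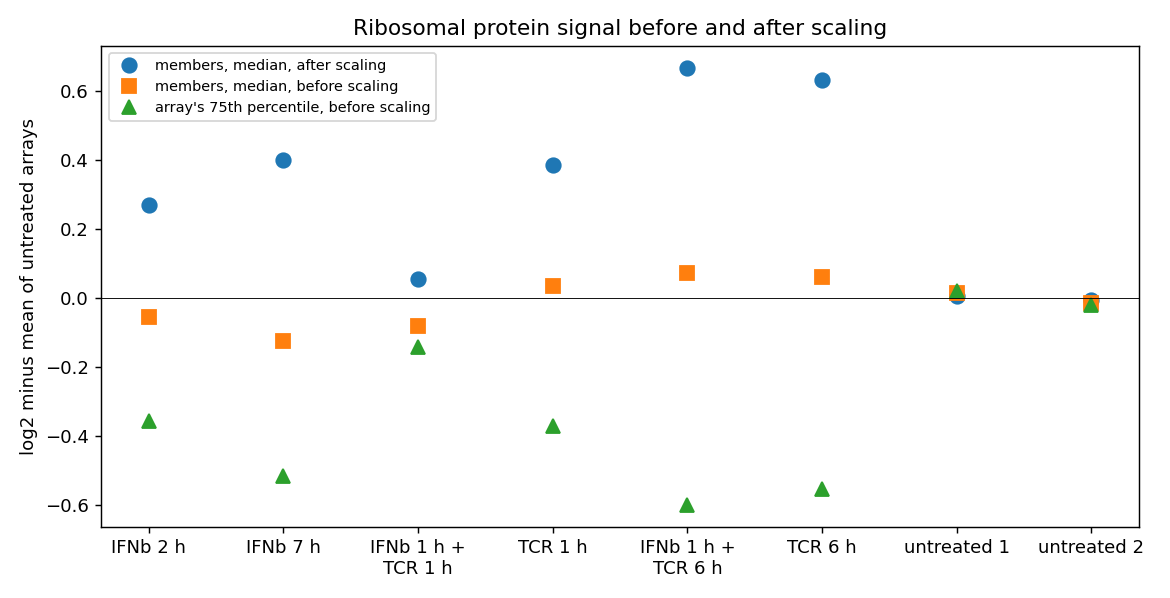
Median log2 signal of the ribosomal protein genes after and before scaling, and the array's 75th percentile before scaling, each minus the mean of the untreated arrays, by array. Before scaling the genes stay between -0.126 and 0.071, and the percentile falls to -0.599 on the array with IFNb and TCR 6 h.

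At 1 h of TCR stimulation only Rpl21 passed the test among the 78 genes (1.28%), against 2.57% of all genes higher, and none was lower, against 1.73%. Rpl21 had 6691 with IFNb and TCR 1 h and 9810 at TCR 1 h alone, against 3206 and 3153 in untreated cells and 2977 and 3492 with IFNb alone. Both TCR 1 h arrays were above all others, with a change of 1.32 ± 0.26 (adjusted p = 0.049 by limma). The second Rpl21 probe had 1178 and 1355 at TCR 1 h with and without IFNb, against 1055 and 1088 in untreated cells, and did not pass at 0.19 (adjusted p = 0.69 by limma over all probes). That call was lost in 13 of 19 alternative settings, with adjusted p-values between 0.012 and 0.20 over all of them. Next came Rpl39l at 0.96 ± 0.33 (adjusted p = 0.15), Rps27l at 0.50 ± 0.27 (adjusted p = 0.34) and Rpl14 at 0.28 ± 0.24 (adjusted p = 0.55 by limma), the genes that rose at 6 h. The lowest were Rpl28 at -0.27 ± 0.30, Rps9 at -0.20 ± 0.27, Rpl29 at -0.18 ± 0.26 and Rps14 at -0.13 ± 0.27, with adjusted p-values from 0.65 to 0.82 by limma. The median was 0.010, against -0.050 for all genes. It rested on arrays that differed: the median over untreated was 0.054 with IFNb and TCR 1 h and 0.386 at TCR 1 h alone. Without the TCR 1 h array the median was -0.24, and without the other 0.304.

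Between TCR 6 h and TCR 1 h, 4 of 78 genes (5.13%) were higher at 6 h, against 16.4% of all genes, and none lower, against 15.6%. They were Rps27l at 1.97 ± 0.29 (adjusted p = 0.0052), Rpl14 at 1.33 ± 0.26 (adjusted p = 0.013), Rpl31 at 0.88 ± 0.26 (adjusted p = 0.044) and Rpl39l at 1.17 ± 0.36 (adjusted p = 0.049, all by limma). Rps27l passed in all 18 alternatives run for this contrast, while Rpl31 lost its call in 11 of them, Rpl39l in 9 and Rpl14 in 4. Rpl21 was the lowest at -0.49 ± 0.28 (adjusted p = 0.22 by limma), and Rpl39, at -0.001 ± 0.251, was the other gene not above 0. Each TCR time lay on 1 slide, so slide and time cannot be told apart here except through the untreated and IFNb arrays, and with the slide as a block 2 genes passed.

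No ribosomal protein gene passed the test for IFNb, in either direction, by limma (0 with an unadjusted p under 0.05), against 0.0662% of all genes higher and 0% lower, and the changes ran from -0.39 to 0.16 with a median of 0.044, against -0.010 for all genes. The lowest were Rpl39l at -0.39 ± 0.28, Rpl14 at -0.38 ± 0.20, Rps27l at -0.19 ± 0.23 and Rpl31 at -0.13 ± 0.20, and the highest Rplp1 at 0.16 ± 0.21, Rpl26 at 0.16 ± 0.21, Rpl23 at 0.15 ± 0.20 and Rpl9 at 0.14 ± 0.22. The median standard error was 0.214. The IFNb term pooled arrays with IFNb for 1 h, 2 h and 7 h, and the pairs behind it differed in direction. Over untreated the median of the 78 genes was 0.268 with IFNb 2 h and 0.4 with IFNb 7 h. With TCR 1 h it was -0.342 and with TCR 6 h 0.022, IFNb minus no IFNb. These directions depend on scaling and naming, as given below, and 0 calls do not show that the genes stayed unchanged. Leaving out 1 array moved the median of the pooled term between -0.015 (without the IFNb 7 h array) and 0.209 (without either array of the TCR 1 h pair). Under quantile normalization, which holds the top of the range in place, the median was -0.039. Rpl13a, which takes part in translational silencing after interferon gamma in human monocytes, had a change of -0.01 ± 0.22. It had 383800 with IFNb for 2 h, 460200 with IFNb for 7 h, and 349800 and 355300 in untreated cells. The interaction of IFNb with TCR 6 h gave 0 calls among the 78 genes and 0 among all genes, with 0 and 1601 at an unadjusted p under 0.05 by limma. The interaction with TCR 1 h likewise gave 0 and 0, with 0 and 1491 at an unadjusted p under 0.05, and each had 1 residual degree of freedom.

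Several genes carried a second probe that was at least 10 times dimmer than the brightest one, and many of these probes rose. There were 20 such probes of 19 gene names, picked after their values had been seen, and 19 passed the filter on dim probes. At TCR 6 h 12 of the 19 rose (63.2%), against 23% of all probes, with a median of 1.337, while the brightest probes of the same names had a median of 0.445 and 1 that passed. Already at TCR 1 h 5 of 19 rose (26.3%), those of Rpl13, Rps28, Rpl11, Rps12 and Rps13, against 2.77% of all probes, with a median of 0.918, against 0.031 for the brightest probes of the same names. Dim probes of Rps19 and Rpl39l entered the test through 3 and 2 arrays above background. Of the 17 above background on all 8 arrays, 11 rose at TCR 6 h, with a median of 1.182, and 5 at TCR 1 h. None of the 19 passed for IFNb (0%), against 0.0419% of all probes, and their median was -0.329. Of the 19 tested probes 13 were designed on a cDNA accession, of which 10 rose at TCR 6 h, and 6 on a RefSeq transcript, of which 2 rose. In the mm9 positions of the array file the probes of a pair lay between 24 and 18687 bases apart, with a median of 1487.5. No mm9 gene models were used here, so exons and introns were not assigned.

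The dim probe of Rps12, a small subunit protein, shows the pattern most strongly, with the largest TCR 6 h change of the 19. It had 15380 with IFNb and TCR 6 h and 21810 at TCR 6 h alone, against 3644 and 3461 in untreated cells. At TCR 1 h it had 6124 with IFNb and 13660 without IFNb, and with IFNb alone for 2 h and 7 h 2353 and 2147. All 4 TCR arrays were above all arrays without TCR, and the changes were 1.68 ± 0.26 at 1 h (adjusted p = 0.026) and 2.68 ± 0.26 at 6 h (adjusted p = 0.00062, both by limma over all probes). The bright probe of Rps12 had 493200 and 486600 at TCR 6 h with and without IFNb, against 316900 and 326100 in untreated cells, a change of 0.34 with an adjusted p of 0.34 by limma. The dim probe of Rpl13 had 3705 and 5814 at TCR 6 h with and without IFNb, against 840.9 and 865.7 in untreated cells, a change of 2.59 (adjusted p = 0.00071 by limma). That of Rps28 had 5084 and 7066 at TCR 6 h and 4088 and 8710 at TCR 1 h, with and without IFNb, against 1798 and 1756 in untreated cells. Its changes were 1.81 at both times, so the fitted 1 h and 6 h values were equal to this precision. The first 30 of 60 bases of these probes are shown because the probes of a pair carry the same gene name and differ in position. Capitals are not used, and the positions are those of mm9 in the array file.
Rps12 bright probe (chr10:23505016-23505075): atggcaaagaatctcaggccaaggatgtca
Rps12 dim probe (chr10:23506043-23506102): tctactgtttgaggtaaagtcaggtgattt
Rpl13 bright probe (chr8:125628966-125629025): gagttatcacagaagaagagaagaacttta
Rpl13 dim probe (chr8:125628690-125628749): ttaataaattcaccagaatgtgccttacag
Rps28 bright probe (chr17:33960041-33960180): agaaagagaagctcgaaggttgcgttaatc
Rps28 dim probe (chr17:33960065-33960124): cttgggagggacttgttaggaggtaagaaa
The bright Rps28 probe was placed in pieces over 140 bases, and the dim probe lies inside that interval. The letters AGGTAAG, those most common where an intron starts, with the variant AGGTAAA and the further form AGGTGAG, were read on the probe strand. They were present in 2 of the 20 dim probes (10%), those of Rps12 and Rps28, in 0 of the 79 brightest probes and in 0.988% of all 41174 probes. These letters were chosen after the sequences had been read, and a match is a description and not a splice site.

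**Figure D4:**
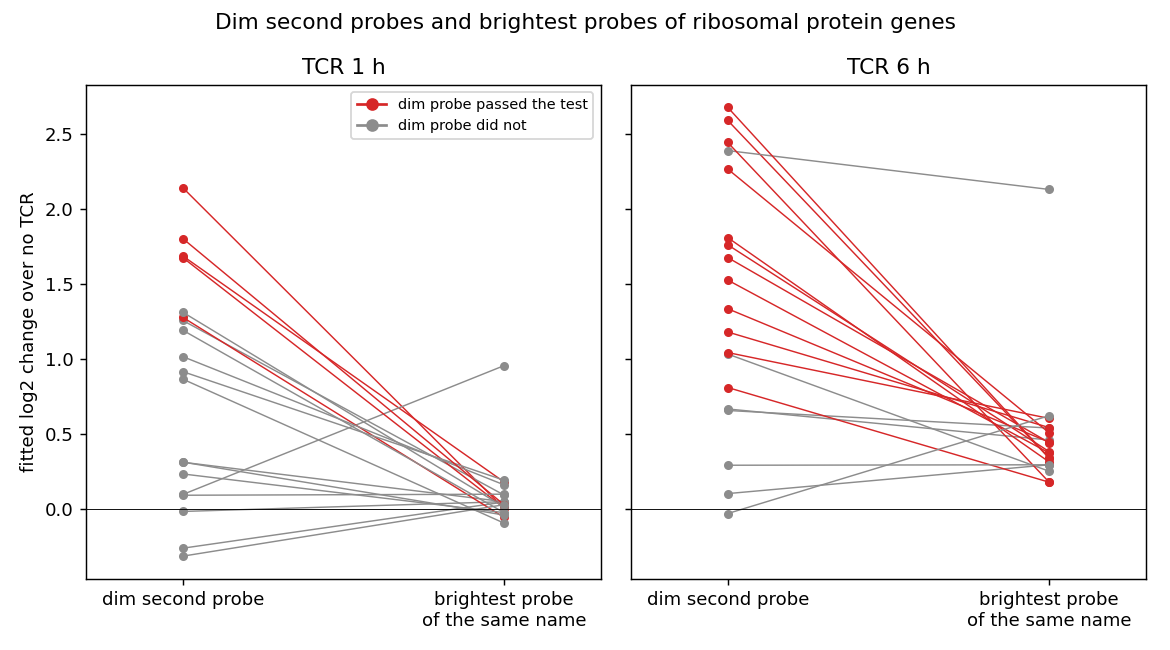
Fitted log2 change over no TCR at TCR 1 h (left) and TCR 6 h (right) for the 19 dim second probes, each joined to the brightest probe of the same gene name. Red pairs are those whose dim probe passed the test, 5 at 1 h and 12 at 6 h. The bright ends stay below 1 apart from Rpl39l at 6 h.

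The dim probes of Rpl11, Rps13, Rpl35a, Rps15a, Rps18, Rps19, Rps24 and Rps25 also rose at TCR 6 h. Rpl11, with 2877 and 4323 at TCR 6 h with and without IFNb against 1351 and 1314 in untreated cells, changed by 1.68 (adjusted p = 0.002 by limma). Rps24 had 2 dim probes that rose, by 2.45 and 0.81. The dim probe of Rps6 changed by -0.03 (adjusted p = 0.94) and that of Rpl23 by 0.11 (adjusted p = 0.76 by limma), so the pattern did not extend to every dim probe. The Rps6 dim probe lies 18687 bases from the bright one, the farthest of the pairs, and may not read Rps6 mRNA. The dim Rps19 probe was well above background on 3 arrays, with 46.48 and 71.56 at TCR 6 h with and without IFNb, against 27.61 and 19.87 in untreated cells, and had to be high somewhere to be tested. Under the scanner files' naming of the TCR 1 h pair, and without any one of the arrays with IFNb 2 h, IFNb 7 h, TCR 1 h or IFNb and TCR 1 h, 0 of the 19 passed at TCR 1 h. Between 10 and 13 of the dim probes passed at TCR 6 h with any 1 array left out.

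Among bright probes of 1 gene name the change also varied with the probe. In 23 gene names with more than 1 bright probe the dimmest of them had the larger TCR 6 h change in 17 and the smaller in 6. The median difference was 0.04, with a range from -0.15 to 0.513. Rplp0 had changes of 0.34, 0.49 and 0.73 for probes with mean signals of 531800, 331900 and 152700, of which only the dimmest passed (adjusted p = 0.045 by limma over all probes). The array file places that dimmest probe on chromosome 8 and the others on chromosome 5, so it may read another copy. Rpl7a had 0.74, 0.89 and 0.86 for probes at 454200, 249100 and 121000, and the dimmer 2 passed (adjusted p = 0.03 and 0.031 by limma).

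Genes that act in making ribosomes gave other counts than the 5 of 78 above. All 60 genes of a list of ribosome biogenesis factors rose at TCR 6 h, with a median of 3.075, led by Nolc1, a nucleolar chaperone of small nucleolar ribonucleoproteins, at 4.66 ± 0.31, Rrp1b at 4.58 ± 0.36 and Bysl, which acts in small subunit maturation, at 4.53 ± 0.30. The smallest changes in that list were those of Utp3 at 1.46, Taf1d at 1.66 and Emg1 at 1.70. At TCR 6 h 22.3% of all genes rose. At TCR 1 h 14 of the 60 (23.3%) had already passed, against 2.57% of all genes, with a median of 0.880. The 4 chaperones that carry single ribosomal proteins all rose: Grwd1 by 4.74, Heatr3 by 3.34, Bccip by 2.43 and Tsr2, which carries Rps26, by 2.22. Of 75 mitochondrial ribosomal protein genes 60 rose (80%) and 0 fell, with a median of 1.393, the highest being Mrps6 at 3.25, Mrpl12 at 3.17 and Mrps18b at 3.07, and the lowest Mrpl14 at -0.61, Mrpl34 at -0.43 and Mrpl4 at -0.22. These lists lie lower in signal than the bright genes, with mean signals from 473.2 to 135200 for the biogenesis factors and from 612.3 to 54000 for the mitochondrial proteins.

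Other mRNAs known to carry a TOP tract encode translation factors and a few other proteins. Of 20 such genes 12 rose at TCR 6 h (60%) and 1 fell, against 22.3% and 22.7% of all genes, with a median of 1.048. The highest were Nap1l1 at 2.59, Npm1 at 1.90 and Ybx1 at 1.72, and the lowest Vim, the intermediate filament vimentin, at -2.53, Eif3f at 0.02 and Tpt1 at 0.29. Mean signals in this list ran from 7396 to 396900, so most of these genes lay below the bright ribosomal protein genes. Of those at 123200 or above in untreated cells, Eef1a1 at 0.35, Eef1b2 at 0.55, Pabpc1 at 0.47 and Tpt1 did not pass. Eef1g at 1.25 and Ybx1 did. Of 11 genes of elongation and release factors or of proteins linked to them, all outside that list, 8 rose (72.7%, against the same 22.3%). They were led by Eef1e1 at 4.29, Eif5a at 3.41 and Etf1 at 3.05. Eef2k at 0.45, Hbs1l at 0.49 and Eif5a2 at 0.66 were the lowest. A list for the route by which mTOR reaches S6 and the 4E-BP proteins also held related kinases such as Rps6ka5. Of its 21 genes 7 rose and 7 fell (33.3% each way), against 22.3% and 22.7% of all genes. Eif4ebp1, which blocks cap-dependent initiation when not phosphorylated, rose by 5.00 ± 0.27 (adjusted p = 0.00034 by limma), Sesn2 by 4.63 and Ddit4 by 3.70, while Pdcd4, an inhibitor of the helicase eIF4A, fell by 3.88, Sesn1 fell by 3.52 and Rps6ka5 fell by 3.12.

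Cytosolic ribosomal proteins and their paralogs with symbols outside the name rule numbered 7 on the arrays, and 2 rose at TCR 6 h (28.6%), near the 22.3% of all genes. Both are paralogs, which need not be part of the mature ribosome. Rpl7l1 had 48020 with IFNb and TCR 6 h and 43830 at TCR 6 h alone, against 7248 and 7420 in untreated cells, a change of 2.82 ± 0.28 (7.06-fold, adjusted p = 0.00075 by limma). In the same order Rpl36al had 232700 and 230400, against 85080 and 81450 in untreated cells, a change of 1.45 ± 0.24 (2.73-fold, adjusted p = 0.0043). Rpl22l1, the paralog of Rpl22, had 189000 and 210700, against 107000 and 105600, and missed the threshold at 0.79 ± 0.26 (adjusted p = 0.05 by limma). Fau, at 0.31, and Gnb2l1, at 0.39, which encode parts of the mature ribosome, did not pass. The difference between paralogs and their parent genes was not tested as such.

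**Figure D5:**
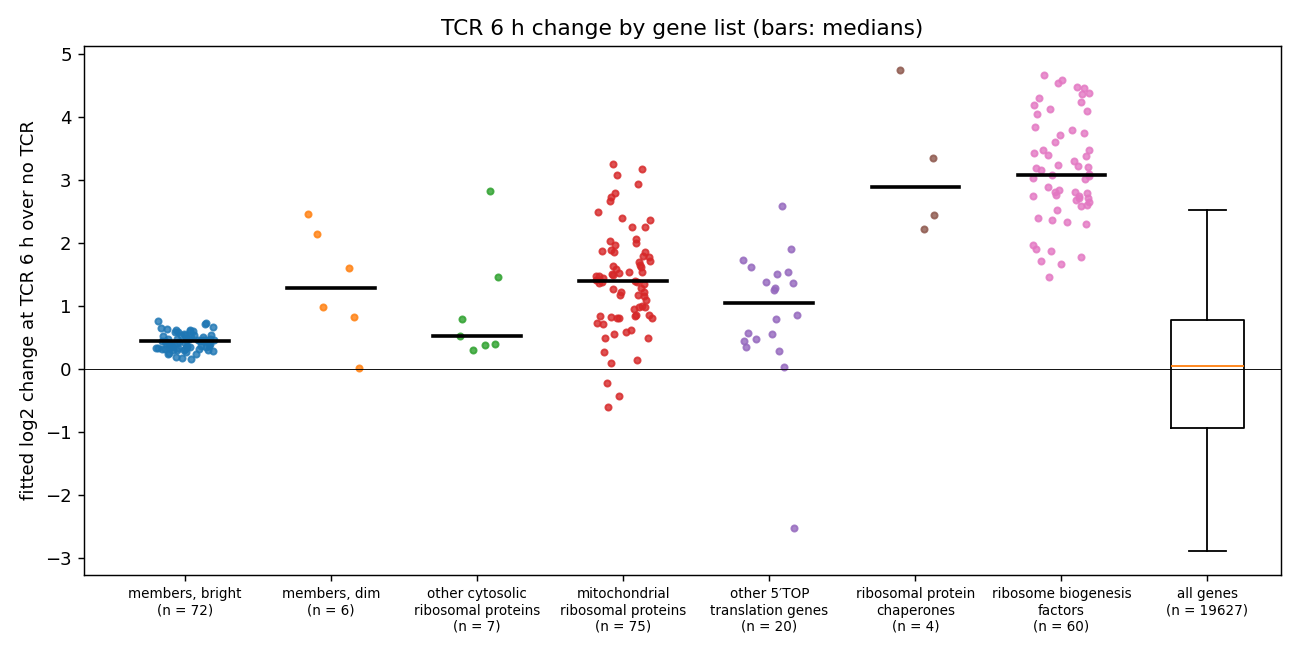
Fitted log2 change at TCR 6 h over no TCR for each gene of the lists, with black bars at list medians and a box for all genes (quartiles, whiskers at the 5th and 95th percentiles). The bright ribosomal protein genes lie between 0.158 and 0.753, and the 60 biogenesis factors between 1.456 and 4.662.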

How the data were processed

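Array intensity came from the scanner files that the authors deposited, written by Agilent Feature Extraction in version 10.7.3.1 per the file headers and 9.5.3.1 per the submitters' processing notes. The deposited signal was background-subtracted and detrended array by array, with no step between arrays. Coordinates are those of mm9, per the file headers. Each column of the deposited value table, also intensity, was found to be proportional to the signal of 1 array, and the columns for the TCR 1 h pair match each other's scanner file. The naming of that table was used.

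Outlier and control spots were left out and repeated spots averaged. Log2 of the deposited signal was scaled to each array's 75th percentile. Probes well above background on at least 2 arrays were kept, and the brightest probe stood for a gene name of the file. All 79 names matched a RefSeq gene, 76 by accession, and 1 (Rps3a) has a newer symbol. The limma package (version 3.58.1, in R 4.3.3, with the data.table package, version 1.17.8) was used for linear models over 7 samples, with 3 residual degrees of freedom. No treated condition had a replicate, so the p-values rest on how far these samples lie from the fitted model. That spread holds differences between treatments, such as IFNb times that share a term, as well as technical ones. Its median SD over the measured ribosomal protein genes was 0.219. On simulated data for TCR 6 h over 19403 genes, 0 of 50 changes of a log2 of 1, 18 of 50 of a log2 of 2 and 29 of 50 of a log2 of 3 were recovered, with 0 false calls. The adjustment is stricter where few genes change, and in the data 4374 genes rose and 4452 fell at TCR 6 h. The simulated shares are therefore not those of the data, in which changes of 0.82 (Rpl21) and 0.98 (Rpl31) passed. Plots and joins used Python 3.11.15 with matplotlib 3.10.9 and pandas 2.3.3.

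Named are a set list of genes, the 4 highest and 4 lowest members in each comparison, and the 3 highest and 3 lowest of other lists at TCR 6 h, not all of which are reported here. The members and lists were chosen with earlier results of these data known. Alternatives were other scalings and filters, all probes of a gene averaged, the scanner files' naming, separate untreated arrays, the slide as a block or alone, and each array left out.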

Additional observations from a re-analysis of the deposited data

Results flagged for a closer look

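The median of the ribosomal protein genes moved in opposite directions with IFNb in different pairs of arrays. It was 0.268 with IFNb for 2 h minus untreated (74 of 78 genes higher) and 0.4 with IFNb for 7 h minus untreated (76 of 78 higher), but -0.342 with IFNb and TCR 1 h minus TCR 1 h (0 of 78 higher). At TCR 6 h it was 0.022. All genes had medians of 0.061, 0.113, -0.103 and 0.005 in the same pairs. The difference was not tested on the list, since each pair is 1 array against 1 or 2, and gene by gene the interactions gave 0 calls. The direction also depends on the scaling: before any scaling the medians for IFNb 2 h and 7 h were -0.055 and -0.126. Under quantile normalization they were -0.008 and -0.058, but that step can hardly let genes at the top of the range move as a group. Under the scanner files' naming of the TCR 1 h pair the third value has the opposite sign.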

How the results depend on the processing

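Of 378 values of the 25 counts and medians under other settings 312 stayed on their side of the threshold or within 1.5 times the count or 1 SD, and no result that had passed a test turned its sign, though several medians did, as given below. The cause of the others was not tested.
At TCR 6 h the count of ribosomal protein genes that were higher was 21 with median scaling, 3 with quantile normalization, 23 with the untreated arrays as separate samples, 8 under the scanner files' naming, 10 with probes well above background on all arrays, 16 with the mean of all probes of a gene, 3 on slide 2 alone, and 3 to 5 with 1 array left out. With normexp and quantile normalization 1 (Rpl27a, -0.50) was lower. The median at TCR 6 h was 0.696 with median scaling, 0.004 with quantile normalization and 0 with normexp. As said above, genes at the top of the range can hardly move as a group under quantile normalization, with or without normexp.
At TCR 1 h the count of genes higher was 0 with median scaling, scanner naming, the slide as a block, no filter, the mean of all probes and slide 1 alone, and 0 to 1 with 1 array left out, where the median ran from -0.24 to 0.304.
For TCR 6 h against 1 h, 2 genes were higher with quantile normalization, scanner naming, the slide as a block and no filter, and 1 to 4 with 1 array left out. With normexp 1 was lower. The median was 0.015 with quantile normalization, 0.037 with normexp, and 0.169 to 0.694 with 1 array left out.
Single-array medians over untreated became 0.934 with IFNb and TCR 6 h and 0.862 at TCR 6 h alone under median scaling. Under quantile normalization they became -0.008 with IFNb 2 h, -0.058 with IFNb 7 h, -0.016 at TCR 1 h, -0.013 with IFNb and TCR 6 h and -0.021 at TCR 6 h alone, and with normexp -0.01, -0.057, -0.01, 0.003 and -0.015 in the same order.
For the dim second probes the TCR 6 h median was 1.589 with median scaling, 1.576 with quantile normalization and 0.965 with normexp. At TCR 1 h 9 passed with separate untreated arrays and with the filter on all arrays, 0 under scanner naming and on slide 1 alone, and 0 to 5 with 1 array left out. The IFNb median was -0.027 under scanner naming.
The IFNb median of the 78 genes ran from -0.015 to 0.209 with 1 array left out and from -0.042 to 0.242 over all settings. No paired analysis was possible because only the untreated arrays carry replicate numbers. Without saturated probes nothing changed, since no spot was saturated.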
